A study of Mus musculus with 18 samples.

Results

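The genes of the NF-κB subunits and of their inhibitors were described here by the chromatin that was accessible around them in macrophages. The 10 genes were the 5 subunits Nfkb1, Nfkb2, Rel, Rela and Relb, the 3 classical inhibitors Nfkbia, Nfkbib and Nfkbie, and the 2 nuclear IκB proteins Nfkbiz and Bcl3, out of 21938 protein-coding genes. Their cis-regulatory elements (CREs) were taken as all listed ATAC-seq features in the gene body or at most 50000 bp from its most upstream start site. This gave 237 of 82391 reference peaks, 258 of 84660 summits (the points of highest signal within peaks) and 113 of 59617 extended regions (peaks widened and joined with their neighbours). ATAC-seq marks exposed DNA through insertion of adapters by the Tn5 transposase. The cells were bone marrow-derived macrophages (BMDMs) cultured from wild type male C57/BL6 mice 6 to 8 weeks old and kept in DMSO, the vehicle, for 1 h in all groups. One group had no further stimulus, and the rest received LPS at 10 ng/mL or IL-4 at 10 ng/mL for 30 min, 1 h, 2 h or 4 h, which made 9 groups with 2 libraries each (18 in all).

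Every list had been pooled over the 18 libraries and held 0 columns per library. Neither the stimuli, the times nor the replicates could therefore be compared, no replicate error exists, and all values describe 1 catalog. Whether a CRE was open before stimulation or only after it cannot be told apart. The only measured quantity in the lists is the score of a summit, which ran from 102 to 2781 over all summits with a median of 737. Its scale is not stated in the sources used here, so that scores serve only to order summits. The catalog had a start-site peak at 8 of 8 macrophage marker genes and at 2 of 8 marker genes of other cell types, Col1a1 with a score of 613 and Cdh5 with 1721.

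NF-κB proteins bind DNA as dimers of the 5 subunits. Rela, Rel and Relb carry transactivation domains, whereas p50 and p52 are processed from the precursors encoded by Nfkb1 and Nfkb2. In resting cells the classical inhibitors IκBα (Nfkbia), IκBβ (Nfkbib) and IκBε (Nfkbie) retain the dimers in the cytoplasm until kinases, activated for instance by LPS through Toll-like receptors, trigger their destruction. IκBζ (Nfkbiz) and Bcl-3 (Bcl3) act in the nucleus, where they bind p50 or p52 and modulate transcription. Several of these genes are known targets of NF-κB, and the resynthesis of IκBα is the classical negative feedback of the pathway. The sequence recognised by NF-κB dimers is the κB site, searched here as the 10-base NF-κB consensus on both strands within 100 bp of a summit.

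The sequences that matter most for what follows are the κB matches at the members' own start sites. At 4 genes the match lay in the 120 bases just upstream of the most upstream start site. These stretches are printed on the strand of the gene, 5′ to 3′, on mm10, with the matches in capitals.
Rel, chr11:23770971-23771090, minus strand: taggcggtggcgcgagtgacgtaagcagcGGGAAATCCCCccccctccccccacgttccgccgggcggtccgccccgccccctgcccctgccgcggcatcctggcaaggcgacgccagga
Relb, chr7:19629439-19629558, minus strand: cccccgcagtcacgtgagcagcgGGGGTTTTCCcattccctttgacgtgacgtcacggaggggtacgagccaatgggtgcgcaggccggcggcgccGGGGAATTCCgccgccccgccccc
Nfkbia, chr12:55492648-55492767, minus strand: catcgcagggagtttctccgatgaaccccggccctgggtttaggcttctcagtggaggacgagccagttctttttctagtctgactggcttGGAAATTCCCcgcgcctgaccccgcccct
Nfkbie, chr17:45555583-45555702, plus strand: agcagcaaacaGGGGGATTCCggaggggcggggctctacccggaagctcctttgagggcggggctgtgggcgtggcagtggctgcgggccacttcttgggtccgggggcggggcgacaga
Relb held a pair of separate matches, and the 11 capitals of Rel are 2 matches shifted by 1 base. A match in this 120-base stretch was found at 4 of 10 members and at 478 of 21938 protein-coding genes (2.18%). This count used the annotation and the genome alone, without the peaks.

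At 5 more genes the match was near another part of the start-site peak, and at Nfkbib it was in the peak but farther than 100 bp from its summit. They are shown with 10 bases on either side, or 20 where no annotated exon is near, again on the strand of the gene. Where 11 bases are in capitals, here and in later stretches, 2 matches overlap.
Nfkb1, chr3:135691497-135691526, untranslated exon: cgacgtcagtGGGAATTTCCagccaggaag
Nfkb2, chr19:46304688-46304717, untranslated exon: ggatcgtcacGGGAATTCCCCccctcgggg
Nfkb2, chr19:46304716-46304745, untranslated exon: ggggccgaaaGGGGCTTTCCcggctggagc
Nfkb2, chr19:46305695-46305724, untranslated exon: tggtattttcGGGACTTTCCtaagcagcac
Rela, chr19:5637878-5637927, outside exons: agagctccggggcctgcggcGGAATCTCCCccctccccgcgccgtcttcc
Nfkbia, chr12:55491937-55491986, outside exons: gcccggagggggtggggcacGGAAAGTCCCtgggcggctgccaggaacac
Nfkbiz, chr16:55838850-55838879, untranslated exon: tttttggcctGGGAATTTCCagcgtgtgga
Bcl3, chr7:19822734-19822763, untranslated exon: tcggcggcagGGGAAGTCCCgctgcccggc
Nfkbib, chr7:28766497-28766526, untranslated exon: ggggcgtgttGGGGAATTCCCgatagggcg
The matches of Nfkb1 and Nfkbiz were the same 10 bases, and that of Nfkbia upstream was their reverse complement. This 10-mer occurred 214 times among the 5626 matches near all summits and ranked 7 by frequency among the 58 different 10-mers found there. Within 100 bp of their summits, the members held 26 different 10-mers, none of them at more than 3 genes. GGGGATTTCC, found at Rel, Nfkbie and Bcl3, was also the most frequent one over all summits, with 327 matches.

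All 10 members had a reference peak within 1000 bp of an annotated start site, as had 56.5% of all protein-coding genes. The best start-site summit scored between 1619 at Rela and 2193 at Relb. The median over the members was 1870.5, beside 1456 over the 12321 protein-coding genes with a start-site summit. This best score is taken over all start-site summits of a gene. Of the members 5 had 3 such summits and 3 had 4 or more, while 5541 of the 12321 genes had 1. Scores were not compared among genes with like numbers. An NF-κB match within 100 bp of a start-site summit was found at 9 of 10 members, all except Nfkbib, beside 8.98% of all protein-coding genes with a start-site summit. Within 50 bp of the summit it was found at 5 of 10 members, beside 5.37% of genes. Genes with more start-site summits have more sequence in which a match can occur. Among genes with 3 start-site summits, 15.4% had a match, and 5 of 5 members of that kind had one. Among genes with 4 to 28, 24.0% had a match, and so did 3 of 3 members. These were Nfkb2 with 4, Nfkbiz with 7 and Nfkb1 with 11. This wide group was not split further, so that 24.0% is not the share of genes with like numbers. Nfkbie, with 2 such summits, had a match where 9.48% of like genes had one, and Nfkbib, with 1, had none where 3.39% had one. At the single best start-site summit, the match was present at Nfkb2, Rel, Nfkbia, Nfkbie and Nfkbiz, which is 5 of 10 members beside 4.11% of genes. No test was made of these shares, since the genes were chosen with results of these data known.

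**Figure D1:**
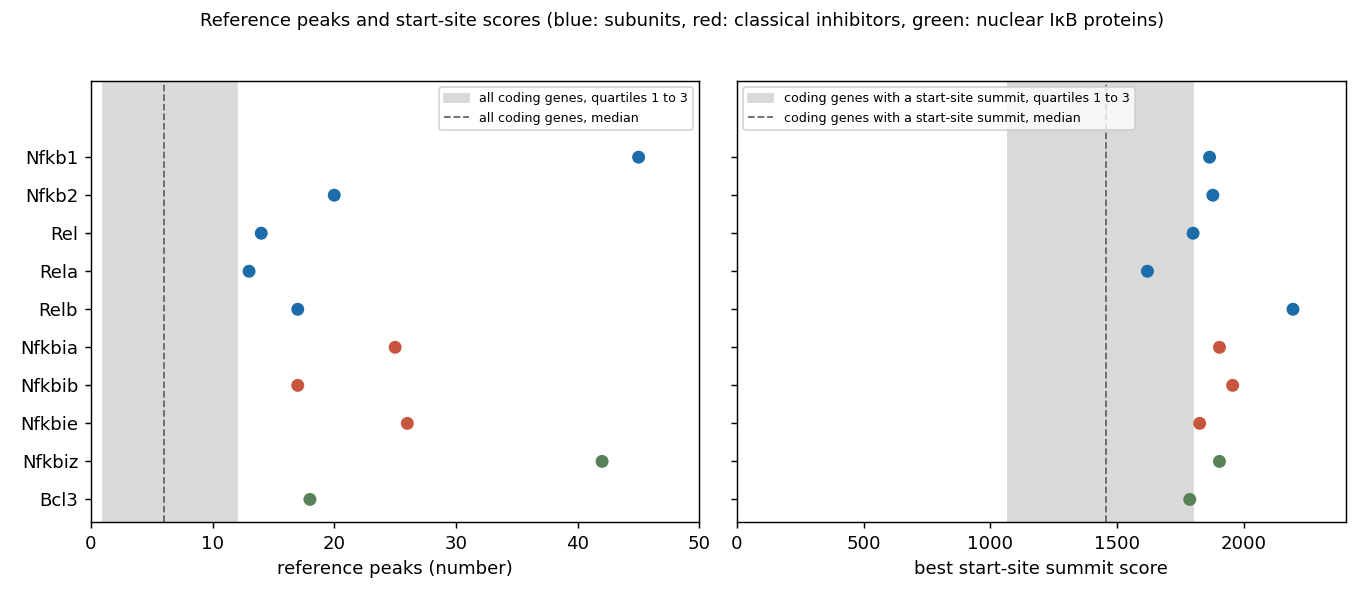
Number of reference peaks (left) and score of the best summit within 1000 bp of a start site (right) for each of the 10 genes, 1 point per gene; the grey band spans quartiles 1 to 3 and the dashed line is the median of protein-coding genes. All 10 genes lie above the third quartile of 12 for peaks, and Rela, with a score of 1619, is the member closest to the median of 1456 on the right.

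The members had between 13 peaks (Rela) and 45 (Nfkb1), with a median of 19, beside a median of 6 over all protein-coding genes and 10 over those with a start-site peak. The 8 macrophage marker genes had a median of 20.5, so that such numbers were not particular to the members. Each member had more peaks than at least 77.4% of protein-coding genes. The gene body counts towards the total, and Nfkb1 is long (106893 bp). With only the window of 50000 bp on either side of the most upstream start site counted, Nfkb1 had 23 peaks and Nfkbiz 42, which was then the highest number. Per 10 kb of gene body, Nfkbia had 12.4 peaks and Nfkbiz 7.63, while Relb had 1.72, beside medians of 0.4685 over all protein-coding genes and 1.127 over those with a start-site peak. The median of the members was 3.175, lower than the 4.425 of the 9 IRF genes. Extended regions showed less of a difference, with a median of 9.5 per member, 5 per protein-coding gene and 7 per gene with a start-site peak. The medians were 10 for the IRF genes and 9 for both the STAT genes and 24 other genes of the pathway. The median score of the 258 member summits was 711, close to the 737 of all summits. The members therefore had more CREs and a higher best start-site score than the median gene, while their typical summit scored no higher. The best score was not adjusted for the number of start-site summits.

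Of the 258 summits, 40 lay within 1000 bp of a start site of the member itself, 59 in its introns and 9 in its exons. A further 50 were at start sites of other genes, 19 inside other protein-coding genes, and 81 outside protein-coding genes. Scores were highest at the members' own start sites (median 1176), followed by the start sites of neighbours (939.5) and by summits outside genes (675), and lowest in the members' introns (524) and exons (298). The members did not weigh equally in these medians. Nfkbiz, with a median score of 458, held 20 of the 59 intronic and 4 of the 9 exonic summits. It held 17 of the 81 outside protein-coding genes. Whether the order of introns and summits outside genes holds without Nfkbiz was not tested. A position in the window does not say which gene a CRE acts on. The neighbours' share was uneven: it was 13 summits of 26 at Nfkbie and 10 of 18 at Nfkbib, 8 each at Nfkb2, Rela and Relb, 3 at Bcl3, and 0 at Nfkb1, Rel, Nfkbia and Nfkbiz.

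**Figure D2:**
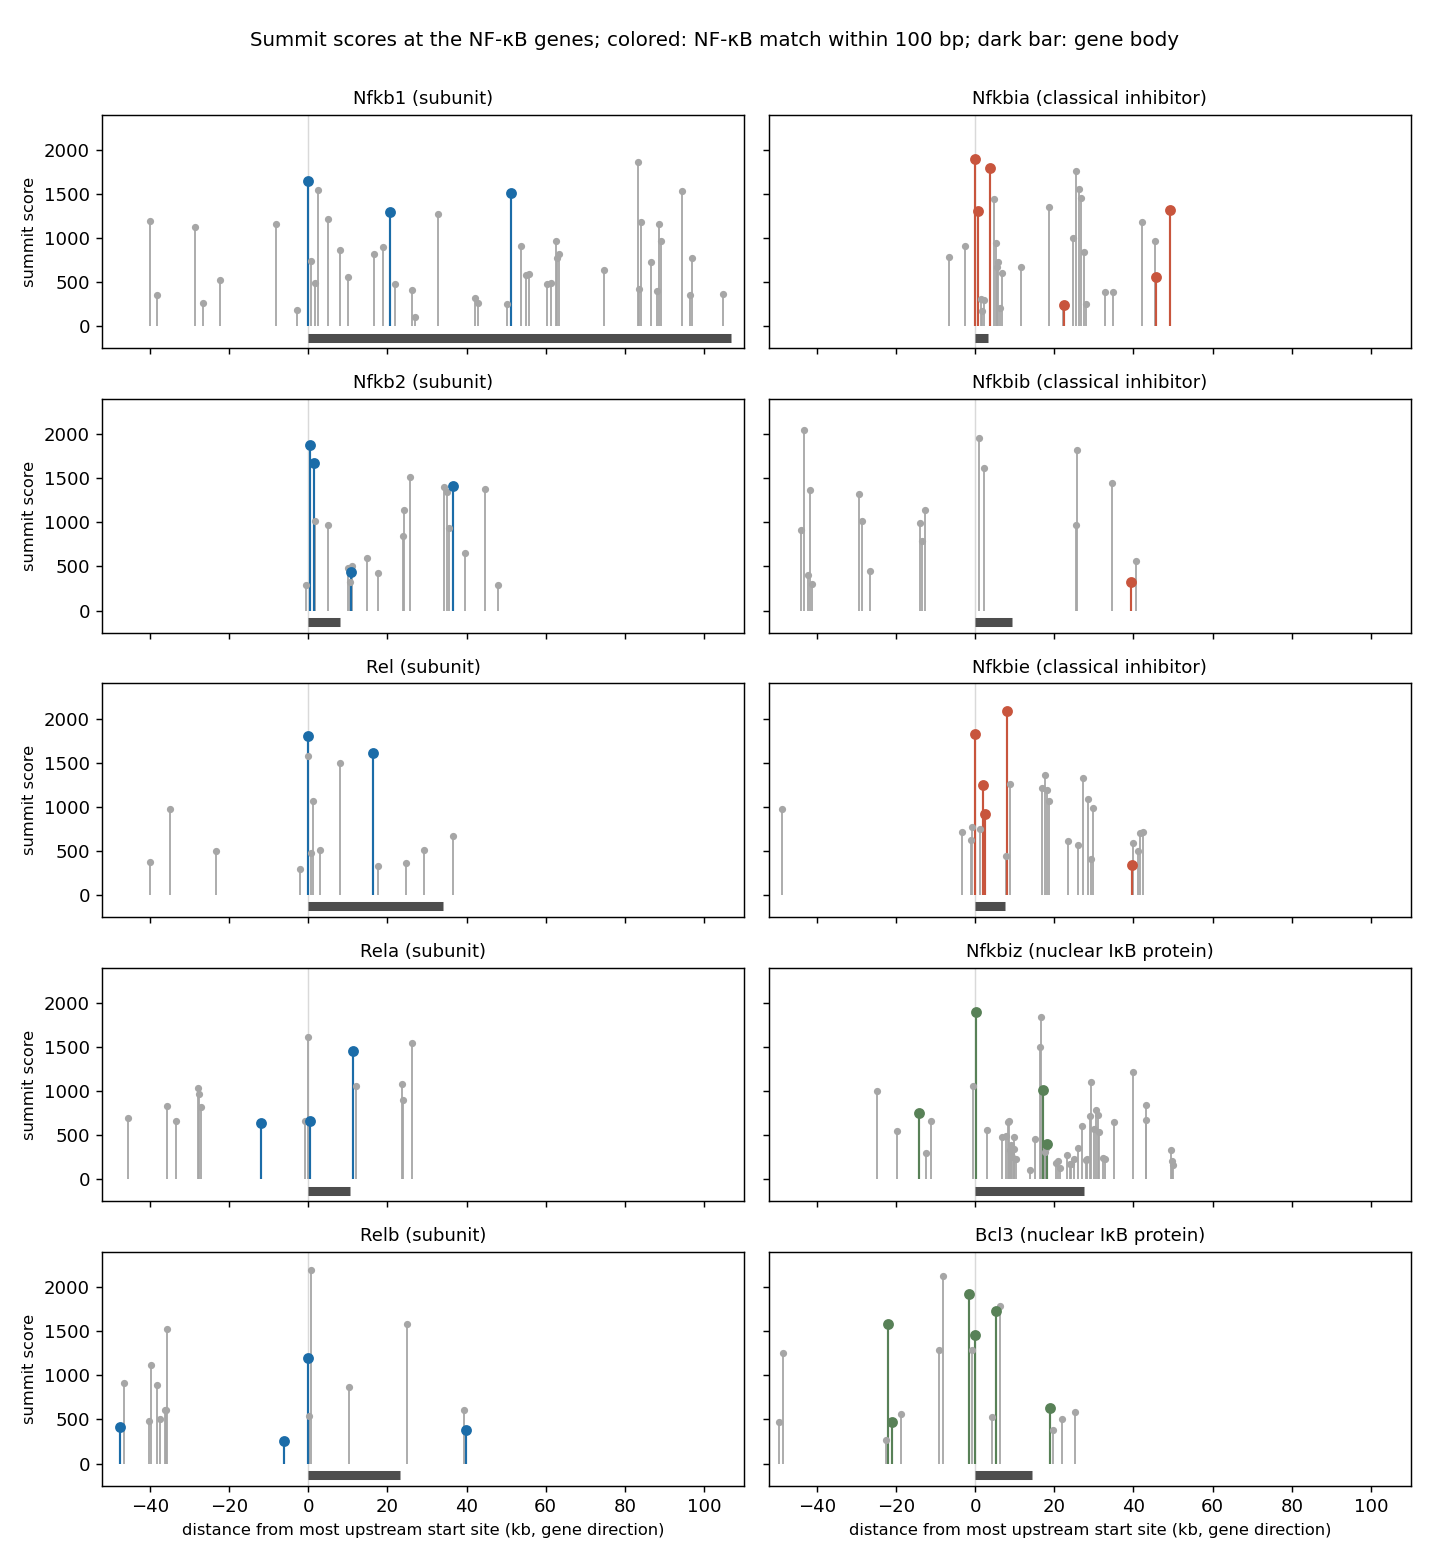
Score of each of the 258 summits (vertical axis) against its distance from the most upstream start site of the gene in kb, in the direction of the gene (horizontal axis); colored summits have an NF-κB match within 100 bp and the dark bar is the gene body. Nfkbiz carries a dense series of low summits inside and behind the gene, and 27 of the 30 summits of Nfkbia lie at or behind its start.

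Among the subunits, Nfkb1 (p105 and p50) had 45 summits, of which 11 were at own start sites, 26 in introns and 1 in an exon. The summit at the most upstream start site, 34 bp inside the gene, scored 1644 and was the one with the κB match, whose centre was 2 bp away. The best summit scored 1864 and was at a start site of a shorter transcript 83206 bp into the gene, and no κB match was within 100 bp of it. The other matches of Nfkb1 were intronic, at summits of 1296 and 1518, 20773 and 51188 bp from the start. Nfkb1 thus had 3 summits with a match among 45 (6.67%), close to the 5.55% of all 84660 summits.

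Nfkb2 (p100 and p52) is a short gene (8066 bp) with 6 annotated start sites and several κB matches at them. The best summit scored 1877 and the next 1670, and both had matches, 4 in all, of which 2 overlap. They lay between 42 bp before and 13 bp behind the nearest start site. One more match in these peaks, at -233 bp from its nearest start, was farther than 100 bp from a summit. The third of the own summits scored 1013 and the fourth 290, and neither had a match. Farther away, a match was found at a summit of 439 near the start of Psd and at one of 1418 near the start of Mfsd13a. Of the 21 summits, 20 were downstream of the most upstream start.

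Rel (c-Rel) had 1 annotated start site, flanked by summits of 1799 (160 bp before it, with the match) and 1581 (73 bp behind it, without). The start-site sequence was the richest in G and C among the members (76.6%). A second κB place was in an intron, 16548 bp into the gene, at a summit of 1606. The stretch around that match is printed since it was the highest summit of Rel away from the start.
Rel, chr11:23754398-23754447, intron: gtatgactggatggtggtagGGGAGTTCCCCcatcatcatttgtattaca
The 2 κB places of Rel within 100 bp of a summit were therefore at its 2 highest summits. One more match in the start-site peak, at -565 bp, was 405 bp from the nearest summit. The 13 summits without a match ranged up to 1581.

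Rela (p65) had the fewest peaks (13) and the lowest start-site score (1619), at a summit with no κB match within 100 bp. Its start-site match was at a weaker summit of 664, which lay 397 bp behind the most upstream start. The match itself was centred 419 bp behind that start and at -31 bp from another annotated start. Away from the start, matches were found at -12031 bp, upstream, at a summit of 634 and 11467 bp downstream, just behind the gene, at a summit of 1456. Of the remaining summits, 8 were at the starts of the neighbours Rnaseh2c, Kat5 and Sipa1, with scores between 664 and 1543 and no match.

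Relb had the highest summit of all members, 2193, at a start site 711 bp into the gene and without a κB match. Both matches of the upstream stretch printed above belonged to a summit of 1200, 84 bp before the most upstream start. The 3 other summits with a match scored only 258, 376 and 411 and lay near start sites of Clptm1, Clasrp and Apoc2. At the 5 subunits together, 16 of 113 summits (14.2%, 95% interval 8.91 to 21.8) had a match.

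Among the classical inhibitors, Nfkbia (IκBα) combined the shortest gene (3238 bp) with 25 peaks and 30 summits. That is more peaks than at 96.6% of protein-coding genes. An extended region of 8521 bp across the gene held 12 of its summits, more than 99.95% of all extended regions. The start-site summits scored 1903, 1308 and 307, of which the first and the second had a match. Of the 25 summits outside protein-coding genes, 4 had a match, at scores of 1799, 1320, 563 and 242. The one of 1799 lay 3783 bp from the start, just behind the end of the gene, with this κB sequence.
Nfkbia, chr12:55488811-55488860, outside protein-coding genes: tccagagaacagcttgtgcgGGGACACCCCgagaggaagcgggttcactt
In total 6 of the 30 summits had a match. The peaks at the starts held a further pair of places, at -268 bp from the most upstream start and 13 to 14 bp behind the second start, which lay 149 to 160 bp from the nearest summit and are not in this count. The window of Nfkbia held no start site of another protein-coding gene near a summit.

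Nfkbib (IκBβ) was the member without a κB match near a start-site summit. It had a single such summit, with a score of 1955, 871 bp downstream of its most upstream start and 1 bp from another, which also lay within 1000 bp of a start of Sirt2. The 2 overlapping κB matches of this peak were 3 and 4 bp behind a further start of Nfkbib and 130 and 131 bp from the summit, just beyond the 100 bp searched. The only match within 100 bp of any of its 18 summits was 39445 bp away inside another gene, at a summit of 324. Its best summit, 2048, belonged to the start of Hnrnpl. The start-site sequence had a G and C content of 48.3%.

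Nfkbie (IκBε) had 26 summits, 2 of them at its own start, with scores of 1825 and 769. The stronger held the match, at -105 bp from the start. Matches were also found at 2 intronic summits, around 1891 and 2357 bp into the gene, with scores of 1248 and 923, and the latter summit had 2. The highest summit of the window, 2087, was at the start of the next gene, Slc35b2, and had a match too, as had a summit of 341 at Slc29a1. The intronic match at the summit of 1248 and the one at Slc35b2 read as follows on the strand of Nfkbie.
Nfkbie, chr17:45557570-45557619, intron: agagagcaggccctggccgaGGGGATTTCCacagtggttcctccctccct
Nfkbie, chr17:45563809-45563858, start of Slc35b2: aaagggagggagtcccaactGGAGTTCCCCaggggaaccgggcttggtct
At the 3 classical inhibitors together, 12 of 74 summits (16.2%, 95% interval 9.53 to 26.2) had a match.

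The 2 nuclear IκB genes differed in the number and score of their CREs. Nfkbiz (IκBζ) had 53 summits, more than any other member, but with a median score of 458, the lowest of the members. An extended region of 14138 bp held 19 of them, more than 99.98% of all extended regions. At its most upstream start a summit of 1903 had the match, centred 10 bp before an annotated start. A cluster at an internal start site, 16451, 16734 and 17126 bp into the gene, scored 1505, 1838 and 1013, and only the summit of 1013 had a match. With 2 further matches at summits of 748 and 402, 4 of 53 summits (7.55%) had one.

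Bcl3 had 18 summits, of which 6 had a match (33.3%, the highest share of the members). They scored 1929, 1734, 1581, 1456, 634 and 476, so that 4 of the 6 scored 1456 or more. The highest, 1929, was at -1524 bp from the most upstream start, the next in an intron 5169 bp into the gene, and the third far upstream, its match at -22012 bp. These 3 places are printed as the group of strong κB-bearing summits away from a start of the gene.
Bcl3, chr7:19824336-19824385, upstream: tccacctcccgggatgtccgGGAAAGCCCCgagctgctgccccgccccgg
Bcl3, chr7:19817610-19817659, intron: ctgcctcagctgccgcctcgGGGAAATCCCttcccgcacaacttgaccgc
Bcl3, chr7:19844758-19844807, far upstream: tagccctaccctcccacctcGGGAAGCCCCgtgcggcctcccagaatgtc
The highest summit of the Bcl3 window, 2127 at -8154 bp, had no match. At both nuclear IκB genes together, 10 of 71 summits (14.1%, 95% interval 7.83 to 24.0) had a match, so that the shares of the 3 classes of members lay within each other's counting intervals.

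**Figure D3:**
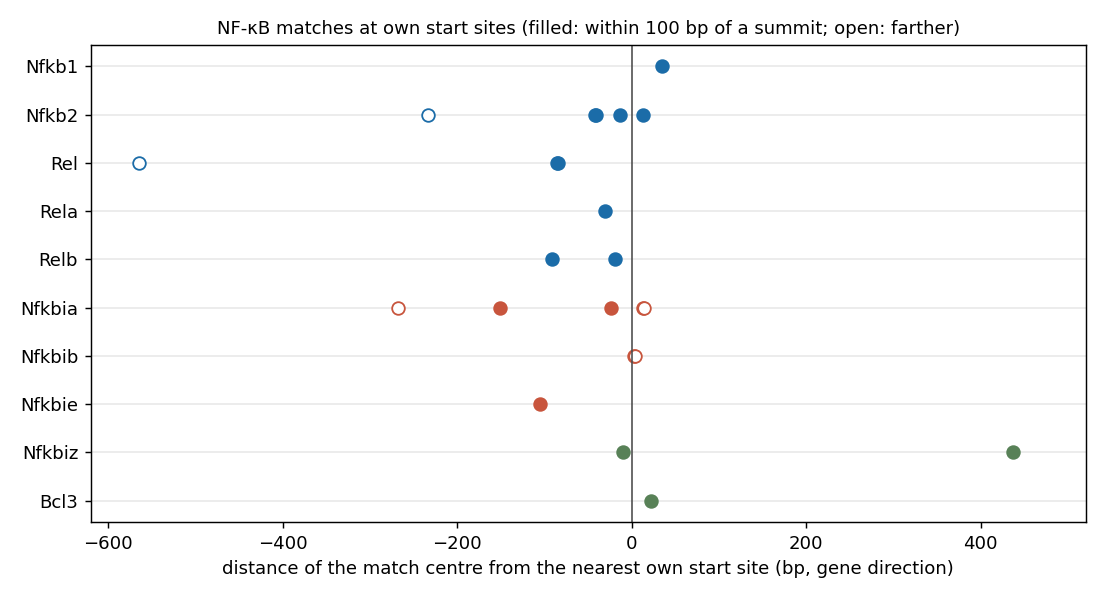
Position of each NF-κB match found within 100 bp of a start-site summit or elsewhere in a start-site peak of the members, as distance in bp from the nearest annotated start of the gene (horizontal axis, negative upstream), 1 row per gene; filled points are within 100 bp of a summit, open points farther. Of the filled points 13, from 8 genes, lie within 100 bp of a start, and the exceptions are those of Nfkbie at -105, Nfkbia at -151 and Nfkbiz at 437, the last of which is near a summit but outside the reference peak.

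Over all members, 38 of 258 summits (14.7%, 95% interval 10.9 to 19.6, counting error only) had an NF-κB match, beside 5.55% of all 84660 summits. With a search of 50 bp the share was 8.14%, beside 3.40%. The matches numbered 46 and formed 41 places once overlapping ones were joined. At the members' own start sites 12 of 40 summits (30.0%) had a match, beside 5.08% of all summits within 1000 bp of any start site. At the remaining summits of the members it was 26 of 218 (11.9%), beside 5.75% of all summits away from start sites. These 218 include the 50 at start sites of neighbours, and without them it was 19 of 168 (11.3%). Windows of the same size placed 1000 bp to either side of the summits, outside reference peaks, held a match in 9 of 366 cases at the members (2.46%) and in 1.80% over all summits. The member matches were thus at the summits more often than in the flanks of the same loci.

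Member summits with a κB match scored higher by median than those without. The value was 1302, beside 664 for the 220 member summits without a match. Over all summits there was no such gap, with 706 for those with and 737 for those without a match. Away from the members' own start sites the medians were 835.5 for 26 summits with and 659 for 192 without a match. With neighbours' start sites left out too, they were 1248 for 19 summits with and 593 for 149 without a match. The members did not move as one. The median was higher with a match at 7 of 10 members, and lower at Rela (664 beside 934), Relb (393.5 beside 867) and Nfkbib (324 for its single match beside 1013). Nfkbiz, where scores were low throughout, made up 49 of the 220 summits without a match. The part of location and of the single genes in the difference was not tested. The median distance from match to summit was 48 bp.

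For comparison, the motifs of other factors active in macrophages were searched in the same windows. The motifs were those of AP-1 (TGAGTCA or TGACTCA), PU.1 and related ETS factors (GAGGAAGT), C/EBP (TTGCNNAA), IRF, STAT, SP and KLF factors (GGGCGGG) and the cAMP response element, CRE (TGACGTCA), each searched on both strands. Matches of different motifs may overlap. AP-1 was found at 29 of 258 member summits (11.2%) beside 15.9% of all summits, IRF at 5 (1.94%) beside 3.64%, STAT at 12 (4.65%) beside 6.81% and C/EBP at 26 (10.1%) beside 11.4%. PU.1 was found at 24 (9.30%) beside 9.08%, and the cAMP response element at 3 (1.16%) beside 0.938%. The AP-1 share had a counting interval of 7.94 to 15.7, which lay below the share over all summits, and the others had intervals that covered it. Within 1000 bp of any start site, AP-1 was at 6 of 90 member summits (6.67%, interval 3.09 to 13.8) beside 7.65% of all, and away from start sites at 23 of 168 (13.7%, interval 9.30 to 19.7) beside 19.4%. The interval covered the share over all summits in both cases. These intervals take the summits as independent, although the 258 come from 10 genes, and are no test. At the own start sites, the PU.1 motif was found at 7 of 40 summits (17.5%, interval 8.75 to 32.0), beside 5.08% of all summits near start sites, at Nfkb1, Nfkb2, Rel, Relb, Nfkbiz and Bcl3. The SP/KLF motif was at 15 of these 40 (37.5%) beside 30.2%, and at a start-site summit of each of the 10 members, beside 53.6% of protein-coding genes. A match only says that the letters are present, and factor binding was not measured.

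**Figure D4:**
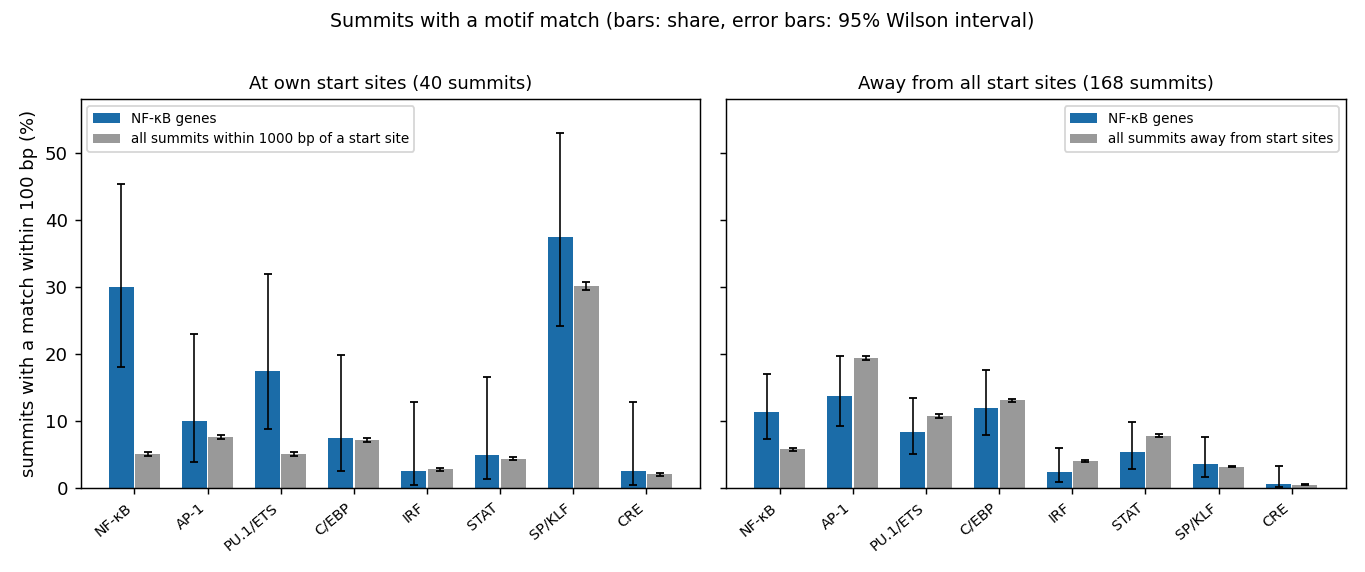
Percent of summits with a motif match within 100 bp for the members (blue) and for all summits (grey), on the left at the members' own start sites and at any start site, on the right away from all start sites in both; error bars are 95% Wilson intervals of counting error. NF-κB stands at 30.0% against 5.08% on the left and 11.3% against 5.75% on the right.

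The start sites of the members differed among themselves in base composition. The G and C content within 100 bp of the best start-site summit ran from 46.3% at Nfkb1 and 48.3% at Nfkbib to 76.6% at Rel. The median was 61.7%, beside 64.2% over protein-coding genes with such a summit. The observed over expected CpG ratio had a median of 0.6745, beside 0.8043, and 8 of 10 members were below that value, all except Rel and Nfkbib. The share of protein-coding genes with an NF-κB match at a start-site summit changed little with G and C content, from 8.15% to 9.91% over its quartiles. Members with a match were present in all quartiles, and Nfkbib, without one, was in the lowest.

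Other genes of the pathway were taken from a list of 24 kinases, adaptors and feedback regulators, which also holds Nfkbid, the gene of a further nuclear IκB protein. Of these, 24 of 24 had a start-site peak, and 8 (33.3%, beside the 8.98% of all protein-coding genes) had an NF-κB match at a start-site summit: Ikbke, Map3k7, Traf3, Traf6, Birc3, Cyld, Tnip1 and Nfkbid. Their windows, some of which overlap, had a match at 37 of 346 different summits (10.7%, 95% interval 7.86 to 14.4), beside 5.55% of all summits. This interval and that of the members overlap. Tnip1, which encodes an inhibitor that binds the deubiquitinase A20, had the most, at 10 of 38 summits and 4 of its 5 start-site summits. Ikbke, the kinase IKKε, followed with 5 of 25 summits, and Birc2, Birc3 and Traf2, which encode ubiquitin ligases of TNF receptor signalling, had 4 each. Summed over the genes there were 41 summits with a match, so that some of the 37 were counted at more than 1 gene. Birc2 and Birc3, both on chromosome 9, may therefore share theirs. The median number of peaks was 13.5 and the median start-site score 1773, both lower than the 19 and 1870.5 of the members.

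Among other inducible transcription factors of macrophages, 8 of 9 IRF genes and 6 of 7 STAT genes had a start-site peak, and Stat4 had none. An NF-κB match at a start-site summit was found at 2 IRF genes (Irf3 and Irf5) and at 1 STAT gene (Stat6). Over their windows, 11 of 177 (6.21%, interval 3.50 to 10.8) and 8 of 94 different summits (8.51%, interval 4.38 to 15.9) had a match. Irf1 and Irf2 had 3 such summits each and Irf3 had 2, whereas Stat6 had 5 and Stat2 had 1. Of the 8 macrophage marker genes, none of which encodes a part of this pathway, 0 had a match at a start-site summit, and 8 of 171 summits in their windows (4.68%) had one. No test of these differences between lists was made.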

How the data were processed

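ATAC-seq libraries of BMDMs (18 in 9 groups) had been sequenced as single-end reads. As the methods state, reads were cleaned by the authors with BBDuk and Trimmomatic 0.39, aligned to mm10 with ShortStack and filtered with SAMtools 1.9, and peaks called with MACS2 2.2.6 (versions as in the submitters' processing notes), without a local background and with duplicates kept. The methods name no Tn5 shift of the reads. Summits can therefore lie beside the position with most insertions, and duplicates can raise scores. Peaks of single libraries had to pass a stringent q-value and to overlap between replicates by a set share. The deposited lists hold positions and, for summits of a call on merged libraries, a score deposited by the authors without a stated scale. Depth per library is unknown.

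Positions are on mm10, counted from 1. Genes come from GENCODE M21 and sequences from GRCm38.p6, whose primary chromosomes have mm10 coordinates. Features were assigned with Python 3.11.15 (pandas 2.3.3, pysam 0.24.0). Peaks and extended regions counted by overlap of 1 bp, summits by position. A start-site feature lay within 1000 bp of any annotated start of the gene, and motif matches had to lie wholly within 100 bp of a summit. Shares have 95% Wilson intervals, which cover counting error only. They take summits as independent, although many come from the same gene, so that an interval that covers or misses a share is no test. Overlap and motif searches were tested on simulated data and recovered what had been planted. Groups were not compared, since no values per library were at hand. The members, motifs and gene lists were chosen with earlier results of these data known, and their shares were therefore not tested. All members are named, and of the other lists the genes without a start-site peak, the 3 with most NF-κB summits (with ties) and those with a match at a start-site summit, the latter chosen after their values were seen. Values of 2 genes that this rule would name are not reported here.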

Additional observations from a re-analysis of the deposited data

How the results depend on the processing

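No paired analysis was possible because the lists hold no values per library, so that replicates could neither be paired nor left out. Of 38 alternatives, 22 left the value in its range, which was 1.5 times for a count and the 95% interval for a share or median, and 16 moved it. A window of 20000 bp gave 140 peaks, 154 summits and 62 extended regions, the gene body alone 92, 97 and 42, and summits scoring at least the median 116, 123 and 68, while a window of 100000 bp gave 188 extended regions. These follow from the construction of the alternatives. The share of member summits within 1000 bp of any start site was 34.9% (29.3% over all summits). It became 26.0% at 500 bp (23.2% over all summits) and 49.6% at 2500 bp (40.3%). The share of member summits with an NF-κB match fell to 8.14% with a search of 50 bp (3.40% over all summits), and was 24.0% with a wider consensus (13.2%) and 20.3% among summits scoring at least the median (5.29%). The number of members with a match at a start-site summit was 5 of 10 with a search of 50 bp (5.37% of genes), and 10 with 200 bp (14.8%) or whole peaks (12.3%), which include Nfkbib. All 10 members had a start-site peak under every alternative run. Since the catalog has no depth or replicate values, the error of a single score is unknown, and a feature that is not listed may lie below the calling threshold or have differed between replicates.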

Other observations

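The windows of the members also hold accessible start sites of neighbouring genes. With summits that are also at a start site of the member left out, the highest of these were 2087 at Slc35b2, next to Nfkbie, 2048 at Hnrnpl and 1825 at Mrps12 and Sars2, both in the window of Nfkbib, and 1581 at Clasrp in that of Relb. A κB match within 100 bp was found at 7 places near neighbours' start sites, at Psd, Mfsd13a, Apoc2, Clptm1, Clasrp, Slc35b2 and Slc29a1. The windows held 50 summits at neighbours' start sites. Of all summits within 1000 bp of any start site, 5.08% had a match. In the members' windows, with own start sites included, it was 19 of 90 (21.1%). The start of Hsp90ab1, which encodes a cytosolic chaperone, had 3 summits between 1188 and 1357 in the window of Nfkbie and no match.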
